A study of Mus musculus with 8 samples.

Results

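HNF4G-only loops were the loops that Hi-ChIP for the transcription factor HNF4G listed in both a primary pancreatic tumor line and a liver metastasis (mets) line of the mouse, and that Hi-ChIP for FOXA1 listed in neither. They were chosen by list membership alone, as loops with an identical pair of anchors in both HNF4G lists and in no FOXA1 list, and there were 4521 of them among 249200 distinct loops, or 1.81%. They made up 5.92% of the 76323 HNF4G tumor loops, 5.79% of the 78098 HNF4G liver mets loops and 17.6% of the 25669 loops that the HNF4G lists had in common. The remaining 21148 common loops (82.4%) were also in at least 1 FOXA1 list. The 14662 loops in both FOXA1 lists and in no HNF4G list, called FOXA1-only below, served for comparison.

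The study performed Hi-ChIP in cell lines derived from KPC mice, a genetically engineered model of pancreatic cancer, to compare the looping of either factor in primary and metastatic cells. The 8 samples formed 4 groups of 2 replicates, with FOXA1 (antibody ab5089) or HNF4G (antibody HPA005438) precipitated from the tumor line or from the matched liver mets line. All cells were labelled wild type (WT) and untreated and were grown in DMEM with 10% FBS, and each context was 1 cell line. Each group had 1 loop list that combined both replicates, so no spread between replicates could be calculated, no test between groups was possible, and the depth of the libraries is unknown. All intervals below are 95% intervals for counting error, and since loops share anchors they are narrower than the true uncertainty.

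HNF4G is an orphan nuclear receptor related to HNF4A, and it is expressed in epithelia of the gut and related endodermal tissues. FOXA1 is a forkhead factor that can bind nucleosomal DNA and open chromatin for other factors. Hi-ChIP joins DNA ends that lie close together in the nucleus and then pulls down the fragments bound by a chosen protein, so that a loop is a pair of anchors found ligated to each other. Anchors and loops are therefore descriptions of contacts, and an anchor need not itself be the site where the factor sits.

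Of the 46 distinct anchors of the loops and hubs named below, 6 (13%) held a match to 1 of 2 HNF4 sequences, CAAAGTCCA or CAAAGGTCA, searched on both strands, against 8.87% of all 30542 anchors. These shares were not adjusted for anchor width, and a wider anchor has more room for a match. Of the 6, the Ache and Chmp6 anchors were 5745 and 6177 bp wide, against a median of 2335 bp over all anchors. These 6 windows of 69 bases are shown because they hold HNF4-type sequences inside the anchors of this set. The match is in capitals, no pair of the sequences searched can match at the same position of a strand, each window is written 5′ to 3′ on the strand given, and the sequences are those of GRCm38, the assembly that mm10 names. None of the windows overlapped an exon. A match to these letters is a description and does not show that HNF4G was bound there.
Ache anchor, chr5:137286503-137286571, plus strand, in an intron of Gm42456: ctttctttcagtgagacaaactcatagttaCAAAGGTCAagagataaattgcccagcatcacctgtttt
Chmp6 anchor, chr11:119916246-119916314, minus strand, in an intron of Chmp6: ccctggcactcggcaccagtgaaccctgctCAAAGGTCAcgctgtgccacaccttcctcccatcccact
Actn4 anchor, chr7:28958912-28958980, plus strand, in an intron of Actn4: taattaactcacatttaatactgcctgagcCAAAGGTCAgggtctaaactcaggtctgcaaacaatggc
Cbx8 anchor, chr11:119042072-119042140, minus strand, outside annotated genes: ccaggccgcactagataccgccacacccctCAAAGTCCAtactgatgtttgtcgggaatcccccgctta
Crocc2 anchor, chr1:93177348-93177416, minus strand, in an intron of Crocc2: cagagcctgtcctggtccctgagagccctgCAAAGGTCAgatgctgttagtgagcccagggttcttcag
2900026A02Rik anchor, chr5:113218791-113218859, plus strand, in an intron of 2900026A02Rik: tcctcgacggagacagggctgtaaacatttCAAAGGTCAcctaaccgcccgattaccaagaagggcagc

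HNF4G-only loops spanned 100 kb or more about as often as their lists as a whole, but smaller shares of them were very short or very long. The span, taken between anchor midpoints, had a median of 117.4 kb, with the middle 50% of loops between 51.9 and 258 kb and extremes of 5.0 and 1996.8 kb, and 55.9% of them spanned at least 100 kb, against 56.8% of the HNF4G tumor and 53.4% of the HNF4G liver mets loops. From 1000 to 2000 kb lay 150 of the 4521 HNF4G-only loops, against 6108 of the 76323 HNF4G tumor and 5586 of the 78098 HNF4G liver mets loops. From 5 to 10 kb lay 100 HNF4G-only loops, against 3971 and 4459 loops of these lists. Loops in a single list were longer, with medians of 330.2 to 374.7 kb. FOXA1-only loops had a median of 119.3 kb, whereas the 13168 loops in all 4 lists had a median of 29.82 kb. By span range there were 100 HNF4G-only loops from 5 to 10 kb, 252 from 10 to 20 kb, 730 from 20 to 50 kb, 912 from 50 to 100 kb, 1032 from 100 to 200 kb, 1006 from 200 to 500 kb, 339 from 500 to 1000 kb and 150 from 1000 to 2000 kb. As a share of the loops common to both HNF4G lists they rose in every range, from 3.21% in the shortest range to 18.3% at 50 to 100 kb, 39.7% at 200 to 500 kb and 80.6% in the longest. The FOXA1-only share of loops common to both FOXA1 lists also rose in every range, from 9.36% to 84.1%. The number of HNF4G-only loops per FOXA1-only loop stayed between 0.274 and 0.359 over the 8 ranges.

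**Figure D1:**
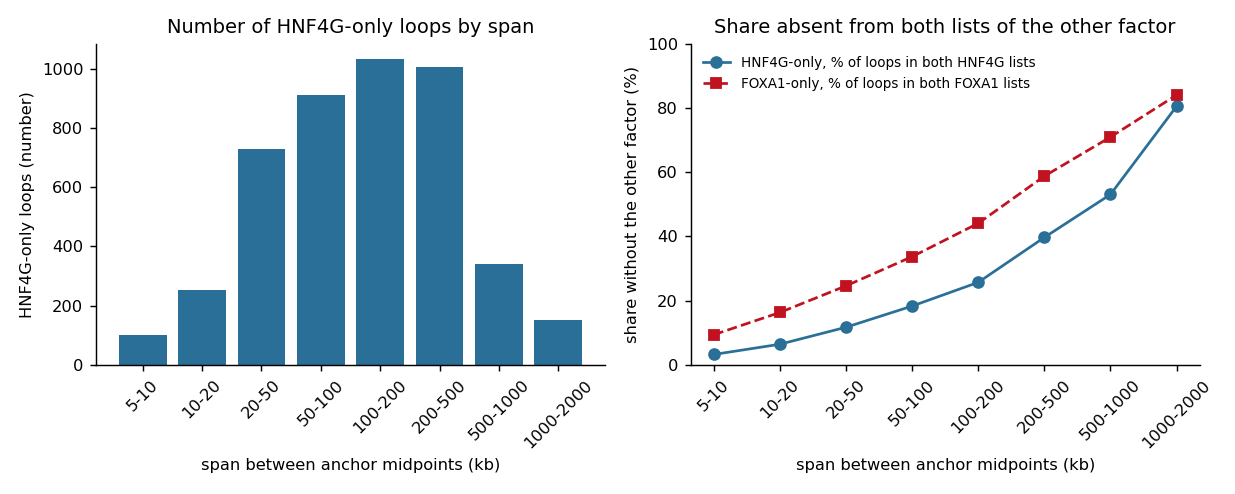
Left, number of HNF4G-only loops in 8 ranges of span (kb between anchor midpoints). Right, share in percent of the loops common to both HNF4G lists that were in no FOXA1 list (circles) and of the loops common to both FOXA1 lists that were in no HNF4G list (squares). Counts were highest, at 1032, between 100 and 200 kb, while both shares rose with span, to 80.6% and 84.1% in the last range.

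To set the number of HNF4G-only loops against chance sharing, the share of all anchor pairs that each list held was taken within each span range, and the number of pairs in both HNF4G lists and no FOXA1 list was computed as if the 4 lists were independent of each other. This gave 5324 loops, so that the 4521 observed were 0.849 of the expected number. The ratio followed span. In the 5 ranges up to 200 kb it was 0.625, 0.627, 0.635, 0.707 and 0.826. It then exceeded 1, with 1006 observed and 820.6 expected loops at 200 to 500 kb (1.23), 339 and 190.3 at 500 to 1000 kb (1.78), and 150 and 62.38 at 1000 to 2000 kb (2.40). HNF4G-only loops were thus fewer than independent lists would give below 200 kb and more numerous above.

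Pairs of lists with no factor and no line in common gave similar ratios. Loops in exactly the HNF4G tumor and FOXA1 liver mets lists were 0.893 of their expected number, and those in exactly the HNF4G liver mets and FOXA1 tumor lists 0.827. The value of 0.849 for HNF4G-only loops lay between them. Loops of both factors in the tumor line alone were at 0.815, those of both factors in the liver mets line alone at 0.889, and FOXA1-only loops at 1.01. All 6 patterns crossed 1 between the ranges of 100 to 200 kb and 200 to 500 kb. With span ranges further divided by 5 classes of anchor use (the product of the numbers of distinct loops at both anchors), a choice made after the data were seen, the HNF4G-only ratio was 0.890 and those of the crossed pairs 0.909 and 0.866.

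**Figure D2:**
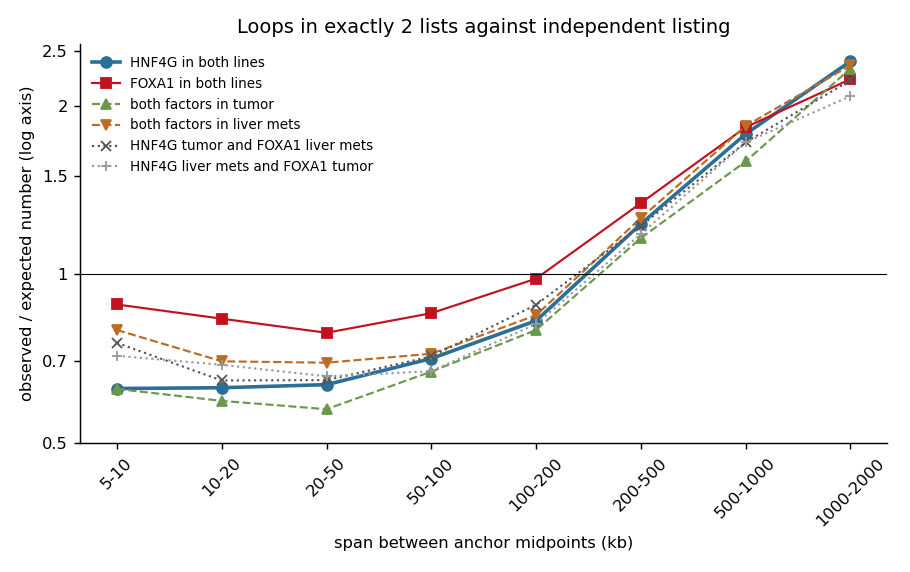
Observed number of loops in exactly 2 of the 4 lists divided by the number expected from independent lists (log axis), by span in kb. The thick line with circles is HNF4G in both lines, and the dotted lines are the pairs of lists that share neither factor nor line. All 6 lines are below 1 up to 200 kb and above 1 from 200 kb, and the HNF4G-only line runs from 0.625 to 2.40.

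The result turned round when FOXA1 absence was taken as given. Among anchor pairs in neither FOXA1 list, the HNF4G lists alone would have had 2739 loops in common by independence within span ranges, and they had 4521, a ratio of 1.65. This ratio rose from 1.15 in the shortest range to 1.54 at 50 to 100 kb and 2.73 in the longest. On the odds scale, among those pairs a listing in 1 HNF4G list went with a listing in the other at a Mantel-Haenszel odds ratio of 2.07 (1.99 to 2.14) over span ranges. The same odds ratio, always among pairs in neither of the remaining lists, was 2.07 (2.02 to 2.11) for the FOXA1 lists. It was 1.85 (1.79 to 1.91) for both factors in the tumor line and 1.97 (1.91 to 2.02) for both factors in the liver mets line. For the crossed pairs it was 1.95 (1.89 to 2.00) for HNF4G tumor with FOXA1 liver mets and 1.89 (1.83 to 1.95) for HNF4G liver mets with FOXA1 tumor. The HNF4G lists therefore shared more loops than independence gives once FOXA1 was absent, and lists of different factors and different lines did so as well, the interval for HNF4G tumor with FOXA1 liver mets overlapping that of the HNF4G lists.

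Each loop carried an unnamed value, read here as the −log10 of an adjusted p from its behavior alone. For HNF4G-only loops the median value was 1.44 in the HNF4G tumor list and 1.52 in the HNF4G liver mets list, against 1.65 and 1.61 over all loops of these lists. The highest values of HNF4G-only loops were 10.1 and 9.82. None of them (0 of 4521) had the top value of 20, which was rare in the lists too (111 of 76323 and 76 of 78098 loops). A value of 2 or more was found for 6.64% of HNF4G-only loops in the tumor list and 6.81% in the liver mets list, against 7.32% and 7.21% of all loops of these lists. The loops that were in both HNF4G lists and in a FOXA1 list had shares of 11.7% and 12.2%. Only 63 HNF4G-only loops (1.39%) had 2 or more in both lists, and 4 had 4 or more in both.

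The values of HNF4G-only loops fell on a few steps that followed span. Among the 73 loops between 190 and 200 kb, 63 had tumor values from 1.68 to 1.78, and the next value was 3.04. In the liver mets list 62 of the same 73 loops had values from 1.73 to 1.80, and the next was 3.09. The values left a gap between these steps. Between 1200 and 1500 kb, 43 of 45 loops had 1.99 in the tumor list and the next value was 4.10. Among the 2527 HNF4G-only loops of 100 kb or more, 88.4% had a value under 2 in the tumor list, 88.5% in the liver mets list and 79.3% in both. Over all loops of that length the shares were 89.6% in the tumor list and 89.4% in the liver mets list, so that by either list alone HNF4G-only loops were near their list. Of the 4844 loops of that length in both HNF4G lists and a FOXA1 list, 51.8% had a value under 2 in both. For FOXA1-only loops the share under 2 in both FOXA1 lists was 72.8% of 8164. Values under 2 were the lowest step from 190 to 200 kb and from 1200 to 1500 kb, and how many read pairs stood behind them was not stated in the sources used here.

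**Figure D3:**
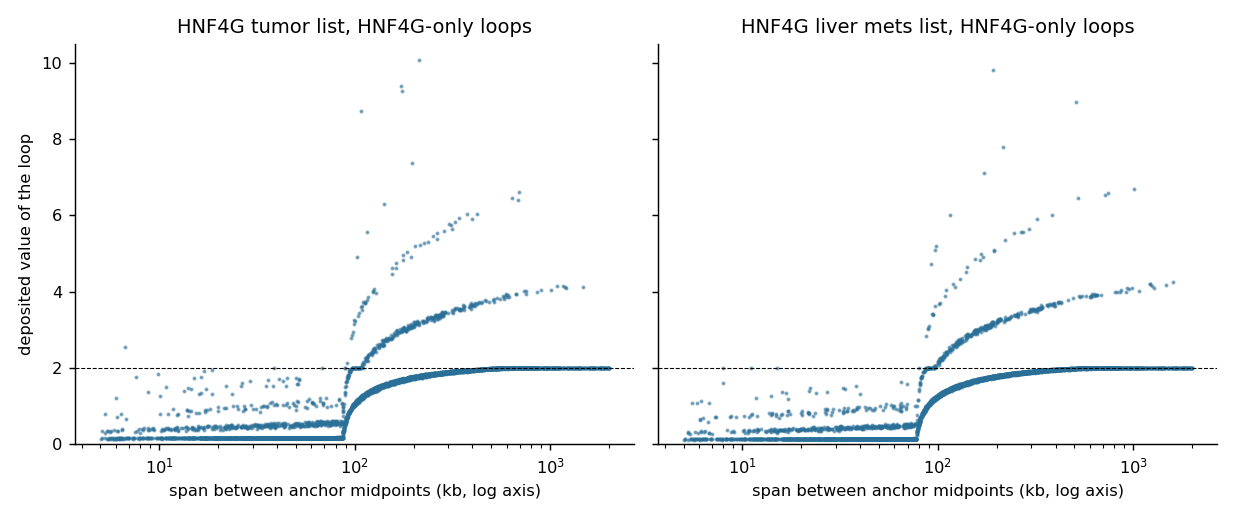
Deposited value of each HNF4G-only loop against its span (kb, log axis) in the HNF4G tumor list (left) and the HNF4G liver mets list (right), with a dashed line at 2. The points form separate curves, and 88.4% and 88.5% of the loops of 100 kb or more lie under the line.

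With the HNF4G lists cut at a value of 2 and the FOXA1 lists kept whole, 63 loops were observed and 52.7 expected, a ratio of 1.19 with an exact Poisson interval of 0.918 to 1.53. The same treatment of FOXA1-only loops, with the FOXA1 lists cut, gave 339 observed and 161 expected (2.11, 1.89 to 2.34). For the crossed pairs it gave 1.43 (1.2 to 1.68) and 1.13 (0.916 to 1.39). This comparison was added after the steps had been seen.

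Promoters were common at the ends of HNF4G-only loops. Promoter anchors were those with an annotated transcription start no farther than 2 kb away, which held for 13819 of 30542 anchors (45.2%). At least 1 promoter anchor was found in 77.9% of HNF4G-only loops (Wilson interval 76.6 to 79.0). Promoters were at both ends of 1494 loops (33.0%), at a single end of 2026 (44.8%) and at neither end of 1001 (22.1%). FOXA1-only loops had a promoter anchor in 67.9% of cases (67.1 to 68.6). The difference was 9.99 percentage points (Newcombe interval 8.55 to 11.4), and within span ranges the Mantel-Haenszel odds ratio was 1.66 (1.54 to 1.80). For promoters at both ends the odds ratio was 1.48 (1.38 to 1.59).

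The difference ran the same way over spans and chromosomes. In the shortest range 65.0% of HNF4G-only and 56.4% of FOXA1-only loops had a promoter anchor, and their intervals overlapped. At 20 to 50 kb it was 76.4% and 63.1%, at 200 to 500 kb 80.0% and 71.8%, and in the longest range 84.7% and 78.0%, where the intervals overlapped again. The difference was above 0 on 20 of 20 chromosomes, from 4.17 points on chromosome 1 to 26.2 points on chromosome 18, with a median of 9.64 points. Chromosome X held only 7 HNF4G-only loops.

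Against other HNF4G loops the difference depended on which were taken. Against loops in both HNF4G lists and a FOXA1 list, of which 75.8% had a promoter anchor, the odds ratio within span ranges was 0.951 (0.876 to 1.03). Against loops in all 4 lists it was 0.924 (0.844 to 1.01), and against loops of both factors in the tumor line alone 1.09 (0.996 to 1.2). Loops of both factors in the liver mets line alone had a promoter anchor in 68.7% of cases, and there the odds ratio was 1.59 (1.46 to 1.73). It was also above 1 against loops in the HNF4G tumor list alone (1.23, 1.14 to 1.33) and in the HNF4G liver mets list alone (1.43, 1.32 to 1.55), and against the crossed pairs, at 1.24 (1.14 to 1.36) for HNF4G tumor with FOXA1 liver mets and 1.32 (1.21 to 1.45) for HNF4G liver mets with FOXA1 tumor.

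**Figure D4:**
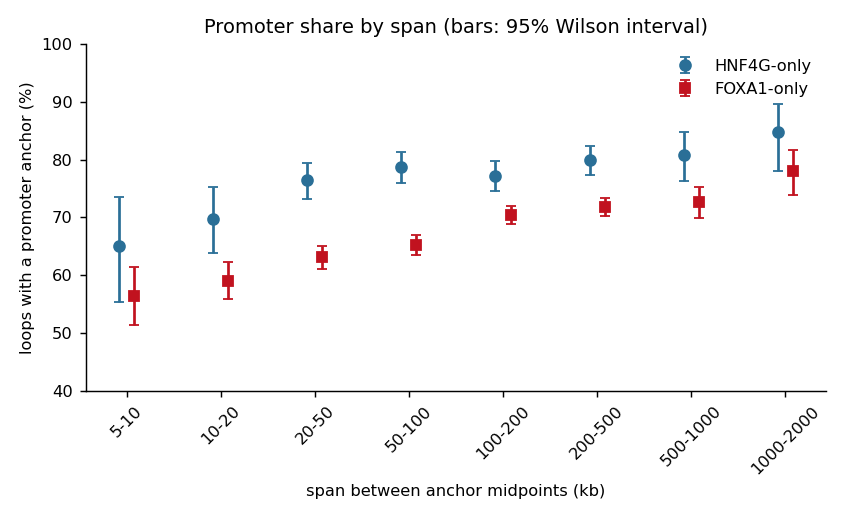
Share of loops with at least 1 promoter anchor, in percent, by span in kb, for HNF4G-only (circles) and FOXA1-only loops (squares), with Wilson 95% intervals as bars. HNF4G-only loops are higher in all 8 ranges, from 65.0% against 56.4% in the shortest to 84.7% against 78.0% in the longest.

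HNF4G-only loops used 7138 anchors, 23.4% of all, and 53.4% of these were promoter anchors (52.2 to 54.5). Of the 7138, 11 were in no FOXA1 list and 97.9% were used in both FOXA1 lists, where 237 of all 30542 anchors were in none and 92.8% in both. The median anchor of an HNF4G-only loop had 7.0 loops in each HNF4G list, 8.0 in the FOXA1 tumor list and 10.0 in the FOXA1 liver mets list. Over all anchors these medians were 4.0, 4.0, 5.0 and 6.0, lower in all 4 lists. Most of the anchors (79.2%) held 1 HNF4G-only loop, 16.2% held 2 and 3.60% held 3.

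The anchor with the most HNF4G-only loops lay at the start of Ache, which encodes acetylcholinesterase, on chromosome 5 at 137285851 to 137291595. It held 9 HNF4G-only loops and 1 FOXA1-only loop. If the 4521 loops were spread evenly over all anchor pairs of their span range, 0.510 would fall there, and the numbers expected at anchors and in windows below are of this kind. Such numbers do not allow for how many loops an anchor had. HNF4G-only loops were 15.3% of the 59 distinct loops of this anchor. Over the 10 anchors with the most HNF4G-only loops this share lay between 5.56% (Cirbp) and 26.3% (Spint1), against 1.81% over all distinct loops. The Ache anchor had 42 loops in the HNF4G tumor list, 27 in the HNF4G liver mets list, 22 in the FOXA1 tumor list and 23 in the FOXA1 liver mets list. By the rule each HNF4G-only loop counts in both HNF4G lists and in no FOXA1 list, and without these loops the HNF4G lists had 33 and 18. The same holds for the counts at the other anchors and genes named for their HNF4G-only loops.

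The partners of the Ache anchor lay on both sides. The farthest, at 1115 kb, was the start of Orai2, a calcium channel of the plasma membrane (values 1.99 and 1.99 in the HNF4G tumor and liver mets lists). The starts of Pop7, at 214 kb, and of Trim56, at 175 kb, had the highest tumor values, 10.1 and 9.27, with 1.80 and 3.08 in liver mets. Other partners were the start of Slc12a9 at 44.7 kb, the start of Zan at 126 kb, an exon of Gm40348 at 116 kb and a pair of anchors outside genes at 185 and 197 kb. Both values were 3 or more for only 2 of the 9 loops, those of 175 and 185 kb.

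A second hub lay on chromosome 19 at 5459813 to 5461359, at the starts of Ccdc85b and Fibp, with 6 HNF4G-only loops and 0.741 expected. Its partners were the starts of Cnih2, Pacs1, Drap1, Kat5, Ltbp3 and, at 802 kb, Atg2a together with the microRNA genes Mir192 and Mir194-2. This anchor had 20 loops in each HNF4G list, 22 in FOXA1 tumor and 27 in FOXA1 liver mets. Without the HNF4G-only loops the HNF4G lists had 14 each.

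A further 14 anchors had 5 HNF4G-only loops, and the 8 named by order of position were the starts of Spint1, Efna3, Cirbp, Cacna1g, Dlx3, Tnrc6c and Chmp6 and an intron of Stx1a, each with between 0.380 and 0.862 expected. Spint1 encodes an inhibitor of the proteases that activate hepatocyte growth factor, and its anchor on chromosome 2 at 119235983 to 119237611 had only 19 distinct loops, of which 26.3% were HNF4G-only. It had 12 and 6 loops in the HNF4G tumor and liver mets lists and 5 and 4 in the FOXA1 lists. With the HNF4G-only loops left out, the HNF4G lists had 7 and 1. Partners of this anchor included the starts of Vps18, Rtf1 and Dll4, a Notch ligand. The Stx1a intron had 10 and 9 loops in the HNF4G lists (5 and 4 without the HNF4G-only loops) and 4 and 7 in the FOXA1 lists. It had no FOXA1-only loop. Its 5 partners included the start of Stx1a itself at 6.10 kb, the start of Tbl2 at 120 kb and an intron of Mlxipl, a regulator of glycolytic and lipogenic genes, at 89.9 kb.

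Dlx3, a homeobox factor of epithelial differentiation, had 33 and 21 loops in the HNF4G lists and 15 and 12 in the FOXA1 lists at its anchor on chromosome 11 at 95119645 to 95120893. Without the 5 HNF4G-only loops the HNF4G lists had 28 and 16. A loop of 108 kb to the start of Gm11515 had a value of 8.73 in the HNF4G tumor list and 1.36 in liver mets. Efna3, an ephrin ligand, had 43 loops in HNF4G tumor and between 20 and 26 in the other lists, with 38 and 17 left in the HNF4G lists without the HNF4G-only loops. A loop of 186 kb joined it to Pklr, the pyruvate kinase of liver (5.04 and 1.74). At Cirbp, which encodes a cold-inducible RNA-binding protein, all 4 lists were long, with 53 and 41 loops for HNF4G and 53 and 58 for FOXA1.

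**Figure D5:**
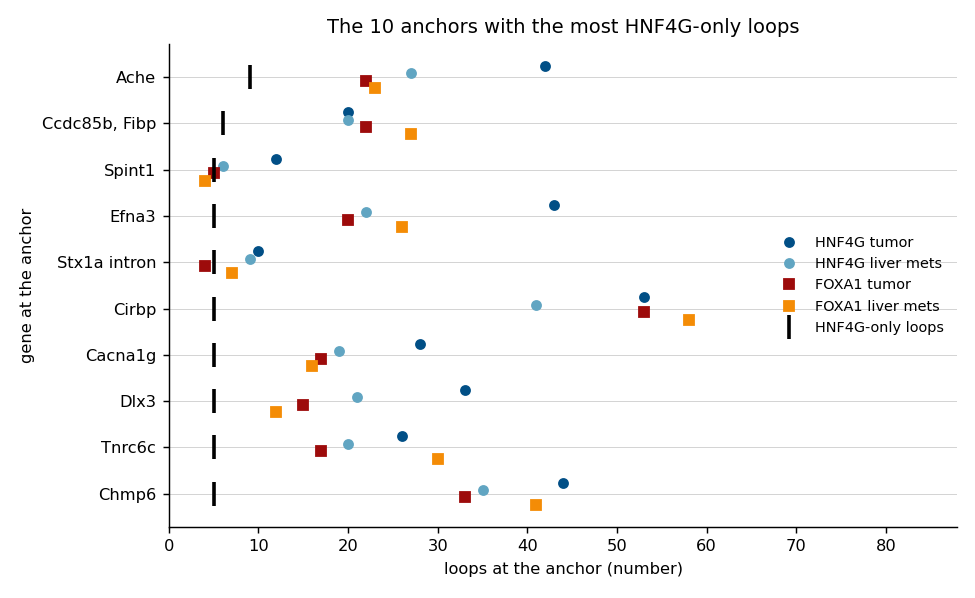
Number of loops at each of the 10 anchors with the most HNF4G-only loops, in the HNF4G lists (circles), the FOXA1 lists (squares) and, as black bars, the HNF4G-only loops themselves. The HNF4G counts include the HNF4G-only loops, as at Ache, where 9 of the 42 and 27 HNF4G loops are HNF4G-only. With them left out, both HNF4G lists exceed both FOXA1 lists at Dlx3 alone of these 10 anchors (28 and 16 against 15 and 12).

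Regionally, HNF4G-only loops followed the density of loops as a whole. They lay in 1027 of the 2048 windows of 1 Mb that held any loop, and across windows their number had a Pearson r of 0.922 with the number of distinct loops, a description in which both counts share the same anchors. The 20 windows fullest of HNF4G-only loops held 589 of them, or 13%. Since these windows were chosen by this very count, the share is a description and has no interval. The same 20 windows held 10.0% of the distinct loops and 9.14% of the FOXA1-only loops. The 20 windows fullest of FOXA1-only loops held 10.2% of those, and the corresponding figures were 10.6% for distinct loops and 9.40% for HNF4G-only loops spread evenly as above.

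The fullest window, on chromosome 19 from 5000001 to 6000000, held 49 HNF4G-only loops with 27.6 expected, 48 of them with a promoter anchor. Its leading genes were Ccdc85b and Fibp with 8 each and Frmd8 and Pcnx3 with 6 each. Next came chromosome 11 from 120000001 with 45 loops (33.1 expected), led by Dcxr, Sirt7 and Lrrc45, chromosome 19 from 4000001 with 39 (23.3), led by Actn3, chromosome 10 from 80000001 with 36 (32.3), led by Cirbp, and chromosome 17 from 27000001 with 32 (14.6), led by AI413582 and Hmga1, a chromatin architectural protein. In all of these at least 87.5% of the loops had a promoter anchor. The expected numbers do not allow for how many loops of any kind a window had. In the order given, HNF4G-only loops were 2.30%, 2.26%, 2.06%, 1.78% and 3.11% of the distinct loops of these windows, against 1.81% over all distinct loops.

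Among the 115 windows with 10 or more HNF4G-only loops the median ratio of observed to expected was 1.31. The highest was 3.41 on chromosome 17 from 57000001, with 10 loops and 2.93 expected, where Gpr108, Khsrp and Trip10 had 2 loops each and where there were 7 FOXA1-only loops. It was followed by chromosome 8 from 13000001 (10 loops, 2.57), chromosome 11 from 118000001 (27 loops, 2.44), led by Cant1, Cbx8, Lgals3bp and Pgs1, and chromosome 19 from 45000001 (10 loops, 2.44), led by Fgf8 and Trim8. In this order, HNF4G-only loops were 6.45%, 4.88%, 2.65% and 2.37% of the distinct loops. As the windows were ranked by the ratio of observed to expected, these values are descriptions only. By chromosome, HNF4G-only loops made up between 0.989% of distinct loops on chromosome 13 (Wilson interval 0.789 to 1.24) and 2.17% on chromosome 7 (1.95 to 2.42).

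Joined through common anchors, the HNF4G-only loops formed 2641 groups. Of these, 1856 were single loops, which made up 41.1% of HNF4G-only loops, and 27 groups had 10 loops or more. The largest group linked 96 loops and 92 anchors over 2969 kb of chromosome 19, from 4011871 to 6981321, and took in promoter anchors of 78 coding genes, Fosl1, Men1, Kat5, Esrra and Cst6 among them. The next largest groups had 30 loops on chromosome 11 around Socs3, Tnrc6c and Tk1, and 27 on chromosome 17 around Hmga1, Bak1 and Spdef.

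Of 10786 protein-coding genes with a promoter anchor, 3456 had at least 1 HNF4G-only loop there, a background of 32.0% against which the gene lists below are read. At least 3 loops were found for 392 genes and at least 5 for 47. After Ache, with 9, came Ccdc85b, Fibp and Frmd8 with 8 each, and Arhgap27, Cacna1g, Csnk1e, Dcxr, Ggnbp1 and Tmem151a with 7 each. Genes with many loops had more occasions for an HNF4G-only loop, and Frmd8 had 202 distinct loops and Arhgap27 197, so the share of a gene's loops is given as well. It was 15.3% for Ache, 5.59% for Ccdc85b and for Fibp, which share their anchors, and 3.55% for Arhgap27, against 2.06% over all coding genes.

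Endodermal and pancreatic transcription factors had HNF4G-only loops at 11 of 22 genes. FOXA1-only loops were 7.23% of the loops at these genes, against 5.23% over all coding genes, and HNF4G-only loops 2.20%. Hnf4a had 2, to the start of Gdap1l1 at 110 kb (1.27 and 2.43) and to a neighboring anchor at 8.59 kb (0.158 and 0.142), and its anchors had 11 and 12 loops in the HNF4G tumor and liver mets lists and 11 and 10 in the FOXA1 lists. Sox9, a factor of ductal progenitors, had 1 loop of 411 kb to an intron of 2610035D17Rik, with values of 3.63 and 3.74. Foxa3 and Onecut3 had 2 each, and Cdx2, Ehf, Gata4, Gata5, Gata6 and Pdx1 were among those with 1. Hnf4g itself had 0 HNF4G-only loops and no more than 2 loops in any list, and Foxa1 had 0 with 6 and 5 loops in the HNF4G lists and 8 and 11 in the FOXA1 lists. Myc also had 0, with 21 and 25 loops in the HNF4G lists and 30 and 35 in the FOXA1 lists.

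Genes of the classical pancreatic cancer subtype had HNF4G-only loops at 7 of 13 genes (53.8%). FOXA1-only loops were 7.11% of their loops, also above the 5.23% over all coding genes, and HNF4G-only loops 2.94%. Lgals4, a gut galectin, had 3, to Dpf1 at 472 kb, to an exon of Ryr1 at 167 kb and to Ggn and Spred3 at 329 kb, all with values between 1.63 and 1.97. Krt20, an intestinal keratin, had 2, and the longer of these, at 954 kb, reached Jup, the desmosomal plakoglobin (1.99 and 4.08). Tff1, a secreted trefoil peptide, had 2 loops to anchors at the start of Slc37a1, and Ctse had 2, while Muc1, Muc5ac and Slc44a4 had 1 each. The basal-like list had 5 of 11 genes (45.5%) and 1.58% of loops, with Lemd1 and Pthlh, a secreted hormone-like peptide, at 3 loops each.

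Epithelial junction genes had HNF4G-only loops at 8 of 22 genes (36.4%) and 2.26% of loops. Tjp3, a tight junction scaffold, had 5, among them loops to Nfic at 140 kb and Celf5 at 196 kb. Jup and Pkp3, both of desmosomes, had 3 each, and Pkp3 was joined to the Mir210 start at 128 kb (1.46 and 2.68). Mesenchymal transition genes had 4 of 19 (21.1%) and 1.62% of loops, with 3 at Twist2, a repressor of epithelial genes, whose values were 0.670 or less.

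Nuclear receptors, the family of HNF4G, had HNF4G-only loops at 14 of 29 genes (48.3%) and 2.36% of loops. Nr4a1, an immediate early receptor, and Rxrb, a retinoid X receptor, had 4 each. Esrra, Ppard and Rara had 3 each, and the Esrra loop to Rin1 spanned 1869 kb while the Ppard loop to Ergic1 spanned 1658 kb, both at 1.99 in both lists. Glycolysis and hypoxia genes had 11 of 23 (47.8%) and 2.01% of loops, with the glucose transporter Slc2a3 and the enzyme gene Tpi1 at 3 each. Cell cycle genes had 7 of 22 (31.8%) and 1.63% of loops, with Ccnd3, a D-type cyclin, at 3. Lipid and absorptive genes typical of HNF4 had 3 of 15 and 1.17% of loops, with 2 at Pklr, and arginine methyltransferases and HNF4 cofactors had 5 of 22 (22.7%) and 0.994%. As shares of loops the lists lay between 0.994% and 2.94%, on either side of 2.06%. The shares of FOXA1-only loops lay between 4.81% and 7.55%, on either side of 5.23%. With 4 to 28 HNF4G-only loops per list, none of these shares was tested.

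Single loops were ranked by the lower of their values in the HNF4G lists. Values in 1 list alone went higher, up to 10.1 in tumor and 9.82 in liver mets. The first by this ranking was a loop of 195 kb on chromosome 7 between the starts of Nfkbib and Sirt2, a deacetylase, and the Actn4 anchor shown above, Actn4 being an actin crosslinker. Its value was 4.91 in HNF4G tumor and 5.09 in HNF4G liver mets. FOXA1 loops were not scarce at its ends, with 14 and 21 in the FOXA1 tumor list and 13 and 16 in the FOXA1 liver mets list. A loop of 155 kb on chromosome 2 joined Adra2b, an adrenergic receptor, to an intron of Kcnip3 (4.61 and 4.85), and here the FOXA1 lists had between 3 and 6 loops at either anchor.

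The next loops were longer. Pdzd7 was joined to Trim8 over 1476 kb of chromosome 19 (4.11 and 4.18), and a pair of anchors outside genes on chromosome 12 over 1009 kb (4.05 and 6.70). An exon of Aldh8a1 was joined to Sgk1, a kinase gene induced by glucocorticoids, over 607 kb (3.92 and 3.87), C1qtnf1 to the Cbx8 anchor shown above, Cbx8 being a Polycomb protein, over 597 kb (3.94 and 3.87), and an intron of Foxp1 to the start of Foxp1, a forkhead factor, over 531 kb (3.84 and 3.87). The last of the 10 were a loop of 110 kb from Hic1 (3.72 and 4.05), a loop of 411 kb from an intron of Dagla to Vps37c (3.71 and 3.70), and a loop of 109 kb from Sik1 to an intron of Hsf2bp (3.63 and 3.89).

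At shorter range the loops ranked first by their lower value had lower values. At 50 to 100 kb the highest loop by this ranking joined Neurod2 to Erbb2, a receptor tyrosine kinase, over 99.6 kb (3.15 and 2.12). At 20 to 50 kb it joined Pklr to Hcn3 over 23.9 kb (1.00 and 1.35), at 10 to 20 kb 2 intronic anchors of Gm14005 (1.48 and 1.25), and in the shortest range the start of Crocc2 to the intronic anchor shown above (1.38 and 0.740). The 3 longest loops, of 1997, 1991 and 1988 kb, ended at Baiap2, at Ttc28 and 2900026A02Rik, and at Arhgef7 and Cdc16, and had 1.99 in both lists.

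HNF4G-only loops often lay beside a FOXA1 loop. With every anchor widened by 2.5 kb on each side, 45% of HNF4G-only loops matched a loop of a FOXA1 list, with 5 kb 63.3%, with 10 kb 79.8% and with 25 kb 93.5%. The 1658 loops without a FOXA1 loop at 5 kb had a median span of 176 kb and a promoter anchor in 80.3% of cases, and the 292 at 25 kb had a median of 254 kb and 86.3%. Against single lists, 49.5% of HNF4G-only loops were matched in FOXA1 tumor and 53.9% in FOXA1 liver mets at 5 kb, whereas 43.1% of FOXA1-only loops were matched in HNF4G tumor and 44.8% in HNF4G liver mets, lists that were shorter.

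Motifs were compared between 2618 anchors of HNF4G-only loops that had no FOXA1-only loop and 11568 anchors with the reverse. HNF4 sequences did not differ detectably. CAAAGTCCA had 0.178 matches per 10 kb in the former and 0.167 in the latter (ratio 1.07, 0.871 to 1.31), and CAAAGGTCA 0.192 and 0.187 (1.02, 0.840 to 1.24), and they were present in 4.4% and 4.76% of all anchors. At least 1 end with an HNF4 sequence was found in 18.6% of HNF4G-only loops, 19.5% of FOXA1-only loops and 25% of loops in all 4 lists.

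Forkhead sequences were sparser at the HNF4G-only than at the FOXA1-only anchors over all, but not in every class of GC content among anchors without a promoter. TGTTTAC, found in 36.6% of all anchors, had 1.58 against 1.83 matches per 10 kb (ratio 0.860, 0.805 to 0.918), and TGTTTGC, found in 43.4%, had 2.13 against 2.39 (0.892, 0.843 to 0.944). In anchors without a promoter the ratios were 0.940 (0.860 to 1.03) and 0.967 (0.896 to 1.04), whose intervals included 1. The AP-1 sequence TGANTCA, found in 63.6% of all anchors, had a ratio of 0.812 (0.778 to 0.847), and 0.863 (0.816 to 0.913) without promoters. GTTAATNAT, of HNF1 and in 7.0% of all anchors, had 0.798 (0.666 to 0.950), and AGGGGGCGC, from the core of the CTCF site and in 3.45%, had 1.55 (1.27 to 1.88). The 4520 anchors with both kinds of loop had 1.49 TGTTTAC and 2.08 TGTTTGC matches per 10 kb, fewer than either set. Sparser forkhead sequences were thus not particular to the HNF4G-only anchors. TGANTCA had 3.85 there, against 3.71 at HNF4G-only and 4.56 at FOXA1-only anchors. GTTAATNAT had 0.201 there, against 0.222 and 0.278, and AGGGGGCGC 0.173, against 0.201 and 0.130. The HNF4G-only anchors had a median GC content of 50% against 47.7%, and 51.8% against 41.8% of them were promoter anchors. In 4 classes of GC content among anchors without a promoter, the interval of the AP-1 ratio left out 1 in the 2 classes of higher GC (0.867 and 0.856) and included it in the others (0.971 and 0.936). From the lowest to the highest GC class the TGTTTAC ratio was 0.741 (0.590 to 0.920), 0.977, 1.09 and 1.17, and the TGTTTGC ratio 1.01, 1.11, 0.896 and 1.01, so that forkhead sequences were not sparser throughout, and all of these intervals but the first included 1. Without promoters the ratio was 0.712 (0.551 to 0.909) for GTTAATNAT and 2.10 (1.34 to 3.23) for AGGGGGCGC. By GC class the GTTAATNAT intervals all included 1, and the AGGGGGCGC interval left out 1 only in the highest class (1.88, 1.07 to 3.19). The part that base composition has in the whole-anchor ratios was not tested further.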

How the data were processed

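Hi-ChIP libraries of 8 samples were processed by the authors with HiC-Pro (version 3.1.0 in the submitters' processing notes) on mm10 with DpnII fragments and duplicate removal, followed by hichipper. Replicates were combined by the authors into 1 list per group, in a way not stated. The deposited value per loop has no name and was read as a −log10 of an adjusted p, from the values alone, and the display score deposited by the authors, derived from it, was not used. No depth is known.

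Anchors were matched by identical coordinates, given from 1. Starts came from GENCODE M21 and sequence from GRCm38.p6, and all anchors lay inside its chromosomes. Expected numbers were taken over 1233725 anchor pairs 5 to 2000 kb apart. Shares had Wilson, differences Newcombe, odds ratios Robins-Breslow-Greenland and motif ratios exact intervals (scipy 1.17.1, numpy 2.4.6, pandas 2.3.3). The statistics were tested on simulated data. Named were the 10 anchors and 10 coding genes with most HNF4G-only loops, the 5 fullest windows and 5 of highest ratio, the 10 loops of highest lower value and the highest per span range, the 3 longest, list genes with 3 or more loops, and Hnf4g, Hnf4a, Foxa1 and Myc. Other genes named, in the accounts of the 10 gene lists and of partners, were chosen after their values were seen. The loops, the lists and these rules were chosen with earlier results of these data known. A few members of these lists and partners of these anchors are not reported here.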

Additional observations from a re-analysis of the deposited data

How the results depend on the processing

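No paired analysis was possible because each list combines both replicates of its group, and for the same reason no replicate could be left out. The number of HNF4G-only loops, 4521 with identical anchors, depended most on the settings. It was 2930 with anchors widened by 5 kb for all matches (HNF4G tumor loops counted), 1658 when only FOXA1 absence was widened by 5 kb, and 2486, 915 and 292 when it was widened by 2.5, 10 and 25 kb. It was 63 with a value of 2 or more in both HNF4G lists and 2359 with 1.3 or more. The ratio of observed to expected, 0.849, was 0.844 to 0.855 in 3 alternatives, 0.890 with classes of anchor use, 1.65 among pairs in neither FOXA1 list and 1.19 with HNF4G loops of a value of 2 or more, and the last 2 lie on the other side of 1. The median span between inner edges was 114.4 kb. The promoter share was 69% with a start inside the anchor, 86.1% within 5 kb, 71.1% for protein-coding genes and 87.3% among the 63 loops at 2 or more in both lists. The promoter odds ratio against FOXA1-only loops lay between 1.61 and 1.75 under 3 definitions of a promoter and between 1.64 and 1.71 with each chromosome left out in turn. The 20 fullest windows held 9.18% of the loops at 0.5 Mb and 18.3% at 2 Mb, against 7.03% and 14.6% for FOXA1-only loops, with the windows chosen by the count of each set itself. Without promoters the ratios of TGTTTAC and TGTTTGC were 0.940 and 0.967, and with promoters those of GTTAATNAT and AGGGGGCGC were 0.991 and 1.25, all with intervals that included 1. The alternatives with 2.5, 10 and 25 kb, anchor use, HNF4G loops of a value of 2 or more, promoter anchors alone and GC classes were chosen after seeing the data. Unknown depth limits what absence from a FOXA1 list can show, and the part of depth was not tested. Of the loops common to both HNF4G lists, 82.4% were in a FOXA1 list.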

Other observations

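Of the 392 coding genes with 3 or more HNF4G-only loops, 49 had no FOXA1-only loop. Among all 3456 coding genes with an HNF4G-only loop, 1065 had no FOXA1-only loop, a larger share. Of all 10786 coding genes with a promoter anchor, 5855 had a FOXA1-only loop. The genes below, apart from Prmt1, were picked from the 49 after their values were seen, and no test was made. HNF4G-only loops add to the HNF4G counts only, by the rule. The 49 genes were also chosen for having no FOXA1-only loop. The counts per list below are therefore tilted towards HNF4G by the choice of genes. Epas1, which encodes a hypoxia-inducible factor, had 4 HNF4G-only loops at its promoter anchor on chromosome 17 at 86753328 to 86755231, with 12 and 6 loops in the HNF4G tumor and liver mets lists and 1 and 3 in the FOXA1 tumor and liver mets lists. Its partners were the start of Rhoq, a small GTPase gene, at 208 kb (values 3.23 and 3.29) and anchors outside genes at 151, 421 and 1128 kb, whose values were all under 2. Caskin1 had 5 HNF4G-only loops, with 27 and 17 loops in the HNF4G lists and 14 and 16 in the FOXA1 lists. Its partners included the starts of Pdpk1, a kinase upstream of AKT, at 337 kb, and of Slc9a3r2 at 156 kb. Commd7 had 3 HNF4G-only loops of its 10 distinct loops, with 4 and 6 in the HNF4G lists and 1 and 2 in the FOXA1 lists, and 1 of these loops reached the start of Dnmt3b, a DNA methyltransferase, at 17.8 kb (0.464 and 0.141). Prmt1, an arginine methyltransferase that is not among these 49 genes, also chosen after its values were seen, had 1 HNF4G-only loop, to Ppfia3 at 374 kb (1.94 and 1.95), and 4 FOXA1-only loops.

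In the RefSeq promoter windows around gene starts (GRCm38.p6, 32851 in all), CAAAGTCCA was found in 0.475% and CAAAGGTCA in 0.478%. Among the 3617 windows of coding genes with an HNF4G-only loop they were found in 0.332% and 0.442%, against 0.371% and 0.316% of 7276 windows of other genes with a promoter anchor. The differences were -0.0393 points (Newcombe interval -0.259 to 0.234) and 0.126 points (-0.106 to 0.421), and both intervals included 0.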
